A study of Mus musculus with 36 samples.

Results

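The genes described here are the mouse Zfp genes: protein-coding genes whose symbol is Zfp followed by a number alone. Such a symbol was carried by 380 rows of counts, of which 370 are annotated as protein coding. The 295 that reached 1 CPM (counts-per-million of the library total) in at least 12 of 36 libraries were analysed, out of 13995 genes tested and 12581 protein-coding genes tested. The rule used the symbol, the biotype and the level, not a response. Of the 75 Zfp genes below the filter, 7 had no count in any library. At the edge, Zfp467, Zfp524 and Zfp808 reached 1 CPM in 12 libraries and were kept, whereas Zfp941 reached it in 11 and Zfp300 in 10 and were left out. All 36 libraries were above 1 CPM for 248 of the 295 genes.

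The libraries were made from polyA RNA of C2C12 cells, a mouse myoblast line that fuses into myotubes in low serum. Every culture received an antisense locked nucleic acid (LNA) on day 3 of differentiation and was used on day 4, so the controls carried a negative control LNA and the Tug1 KD cultures an LNA against the long non-coding RNA Tug1. Cultures were left unstimulated with electrodes in the medium (Rest), or received electrical pulse stimulation (EPS), an in vitro model of exercise, for 3 h and were collected either at its end (EPS 0h) or 3 h later (EPS 3h). Each of the 6 combinations had 6 libraries, with total counts between 17005079 and 24181167. There was a single Rest group, so the EPS 3h comparison holds stimulation and the added hours in culture together and they cannot be told apart. Tug1 itself fell by 0.83 ± 0.17 (log2, SE) in Tug1 KD at Rest, fell by 0.57 ± 0.17 at EPS 0h and fell by 0.51 ± 0.17 at EPS 3h (edgeR FDR = 0.000915, 0.0178 and 0.0414, n = 6 libraries a group), and in controls it rose at EPS 3h by 0.75 ± 0.17. By the study's methods each library was 1 well, and the 6 wells of a group came from 2 experiments with 3 wells each, so the p-values measure the spread between wells and the 6 are not equally independent. The labels do not say which replicate numbers belong to which experiment. In Rest control, chi-square per degree of freedom between libraries was 5.432 to 9.996 within replicates 1 to 3, 8.636 to 51.35 within replicates 4 to 6 and 41.18 to 80.95 between these sets.

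Most Zfp genes encode proteins with C2H2 zinc fingers, small folds in which cysteine and histidine residues hold a zinc ion and which read DNA when several stand in a row. Many of them also carry a KRAB box, which recruits Trim28 and through it the histone methyltransferase Setdb1, so that the sites they bind, often in transposable elements and imprinted regions, are packed into silent chromatin. The symbol is not a pure family name: it also covers RNA-binding proteins, spindle factors and transcriptional activators, and KRAB zinc finger genes lie in tandem clusters that arose by repeated duplication.

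A KRAB A box was found in the annotated protein of 170 of the 295 genes and not in 125, from at least 7 of 11 consensus positions in the translated coding sequence. A single protein per gene was read, the canonical one where annotated. A box in another transcript of the gene, or a diverged box, could thus be missed. The number of C2H2 motifs ran from 0 to 36, with a median of 12 in genes with a KRAB box and 8 in those without. Another Zfp gene lay within 500 kb for 150 of the 170 KRAB genes and for 50 of the 125 others. Per kb of exon, the mean Rest control level of KRAB genes had a median of 1.25 RPM (TMM-normalised reads-per-million), that of the other Zfp genes 3.25 RPM and that of 12286 other protein-coding genes 4.38 RPM. The levels per kb ran from 0.0827 RPM for Zfp366 to 34.7 RPM for Zfp622, a factor of ribosome assembly. When all protein-coding genes were cut into 10 equal bins (deciles) by mean log2 CPM over the 36 libraries, 226 Zfp genes fell in the lower 5 bins and 10 in the top 2.

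The cultures carried the 8 myotube markers listed, including Myog, Myh3 and Ckm, at a summed level between 11070 and 18800 CPM in every library, and none of the 8 passed the test in the EPS comparisons in controls. The 5 markers of dividing or mononuclear cells summed to between 118.2 and 165.5 CPM in Rest control, 157.5 and 191.3 CPM in EPS 0h control and 97.41 and 152.1 CPM in EPS 3h control, with 2 called higher and 1 lower at EPS 0h and 1 higher and 2 lower at EPS 3h. Pax7, which marks reserve cells, fell by 0.62 ± 0.14 at EPS 3h (edgeR FDR = 0.000339) and differed by -0.93 ± 0.14 between EPS 3h and EPS 0h. Myf5 rose by 1.31 ± 0.20 at EPS 0h and differed by -0.97 ± 0.20 between EPS 3h and EPS 0h. Of 5 markers of cells not present in the line, Ptprc, Cdh5 and Adipoq were below the filter. Epcam and Pecam1 were tested and rose at EPS 3h, and the 5 together summed to between 0.494 and 1.222 CPM in Rest control and between 5.7 and 9.588 CPM in EPS 3h control. Their part in the results was not tested. Fewer cells of a type and less RNA per cell cannot be told apart in these bulk samples.

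The first question was what EPS did to Zfp genes during recovery. At EPS 3h against Rest in control cultures, 146 of 295 Zfp genes fell and 35 rose at an edgeR FDR under 0.05, while 25.9% of all genes tested fell and 26.1% rose. The median log2 fold change of the Zfp genes was -0.39 (middle 50% of genes from -0.82 to -0.02), against -0.03 for other protein-coding genes. By size, 48 of the 295 Zfp genes fell and 7 rose by at least 1 log2 unit, against 503 and 948 of 12286 other protein-coding genes. Relative to the other protein-coding genes of the same decile the median difference was -0.29, and 208 of 295 genes were below the median of their decile. The 6 EPS 3h control libraries did not overlap with the 6 Rest control libraries for 88 genes on the lower side, or 29.8% against 13.8% of all genes tested, and for 23 genes on the higher side, or 7.8% against 15.2%.

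Some of the genes passed the filter through the libraries in which they were high, so the counts were repeated for the 211 Zfp genes averaging 5 RPM or more over all libraries, a set chosen after seeing the data. Of these, 99 fell and 34 rose at EPS 3h, and the median difference from the decile was -0.18 in place of -0.29. Among the 84 genes under 5 RPM, 47 fell and 1 rose. Scaling by library size alone moved the median log2 fold change of all protein-coding genes at EPS 3h by -0.17, and with it 193 Zfp genes fell and 26 rose.

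**Figure D1:**
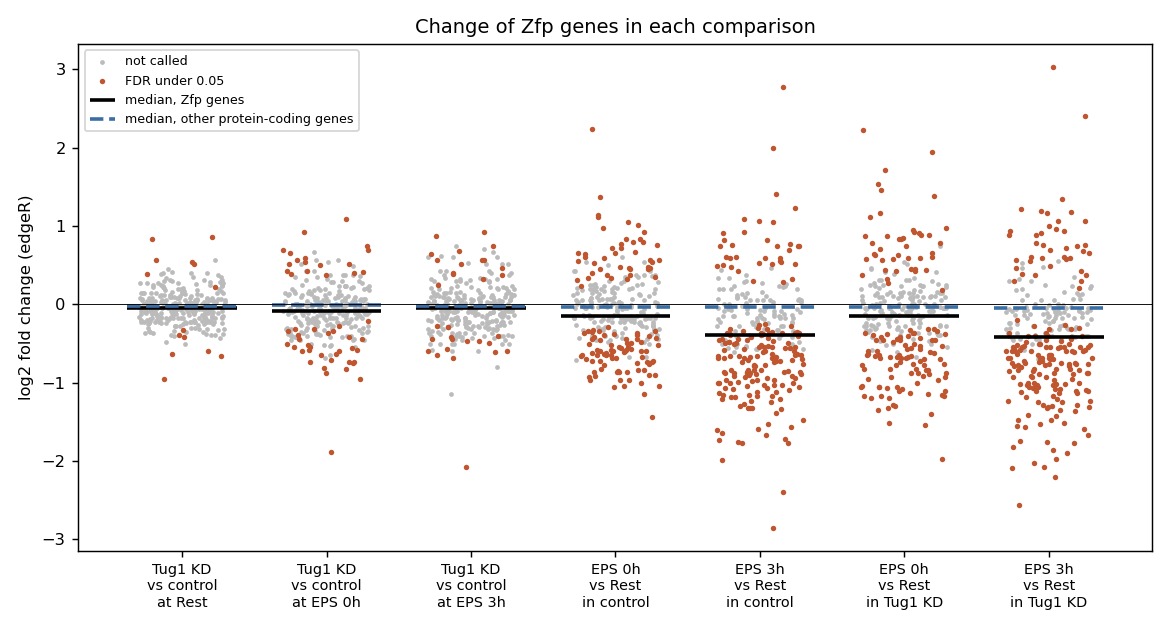
Log2 fold change (edgeR, vertical axis) of each of the 295 Zfp genes in 7 comparisons (horizontal axis). Grey points were not called and orange points had an FDR under 0.05, the black line is the median of the Zfp genes and the dashed line that of other protein-coding genes. At EPS 3h the black line lies at -0.39 in control and -0.42 in Tug1 KD, and a few genes, with Zfp473 at the top, lie far above it.

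Zfp genes lay below other genes mainly in the lower bins of expression. In deciles 1 to 4 the median log2 fold changes of Zfp genes at EPS 3h were -0.67, -0.66, -0.52 and -0.43, whereas those of other protein-coding genes in the same bins were 0.28, -0.10, -0.21 and -0.19. The other genes passed the same filter over all 36 libraries, so some could have entered through EPS libraries in which they were high. In decile 1, 40.3% of the other genes were called higher and 18.1% lower. How much of the gap in the low bins comes from this was not tested. From decile 5 to decile 7 the Zfp medians, between -0.15 and -0.10, were close to those of other genes, between -0.13 and -0.03. The 7 Zfp genes of the top decile had a median of 0.51, with 6 of them called higher and 0 lower. Across the 295 genes the log2 fold change at EPS 3h had a Spearman rho of 0.48 with mean log2 CPM, of 0.26 with exon length and of -0.12 with the number of C2H2 motifs. These are descriptions across genes of the same libraries, and mean level, length and family overlap. The mean level and the deciles include the EPS libraries, so a gene that falls after EPS also has a lower mean. Part of the rho with mean level is thus built in.

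**Figure D2:**
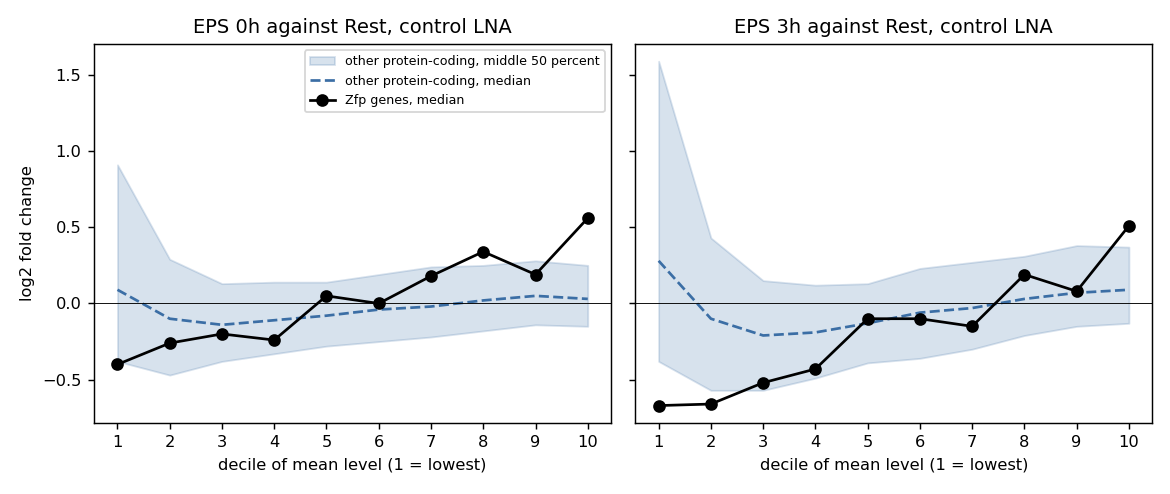
Median log2 fold change (vertical axis) of Zfp genes (black) and of other protein-coding genes (dashed line, with their middle 50% shaded) in each decile of mean level (horizontal axis), in control cultures. Zfp genes lie below other genes in deciles 1 to 4, with medians from -0.67 to -0.43 at EPS 3h, and above them in the top decile.

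Genes with a KRAB box had the larger median fall. Of 170 KRAB genes, 93 fell and 8 rose at EPS 3h, with a median difference from the decile of -0.42, and of the 125 genes without one, 53 fell and 27 rose, with a median difference of -0.14. Over genes averaging 5 RPM or more the medians were -0.22 for 103 KRAB genes and -0.10 for 108 others. The place of a gene went with the same split. Of the 200 genes with a Zfp neighbour within 500 kb, 110 fell and 11 rose, and of the 95 isolated ones 36 fell and 24 rose. The 50 genes without a KRAB box that had a Zfp neighbour were much like the KRAB genes, with 30 lower, 4 higher and a median difference from the decile of -0.45. The 75 isolated genes without a KRAB box had 23 lower, 23 higher and a median difference of 0.02. Among KRAB genes, the 150 with a Zfp neighbour had 80 lower, 7 higher and a median difference of -0.423. The 20 isolated KRAB genes had 13 lower, 1 higher and a median difference of -0.415. The difference between these subsets was not tested.

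Per library, the median distance of Zfp genes from their decile ran from -0.14 to 0.08 in the 6 Rest control libraries and from -0.48 to -0.11 in the 6 EPS 3h control libraries. In 2 of the EPS 3h control libraries, replicates 1 and 2, the value was above -0.19. For KRAB genes the mean was 0.01 ± 0.10 (SD, n = 6) in Rest control and -0.42 ± 0.23 in EPS 3h control, and for the other Zfp genes it was 0.01 ± 0.07 and -0.12 ± 0.05. As a share of all counts, KRAB Zfp genes had a median of 0.224% (lowest 0.179%, highest 0.231%) in Rest control and 0.159% (0.131% to 0.176%) in EPS 3h control, without overlap. The other Zfp genes had 0.507% (0.430% to 0.517%) and 0.470% (0.447% to 0.497%), which overlapped. These shares carry no TMM scaling. The TMM factors ran from 1.037 to 1.084 in Rest control and from 0.916 to 0.975 in EPS 3h control. Dividing by them would lower the Rest shares and raise those of EPS 3h, so the lack of overlap describes raw counts only.

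**Figure D3:**
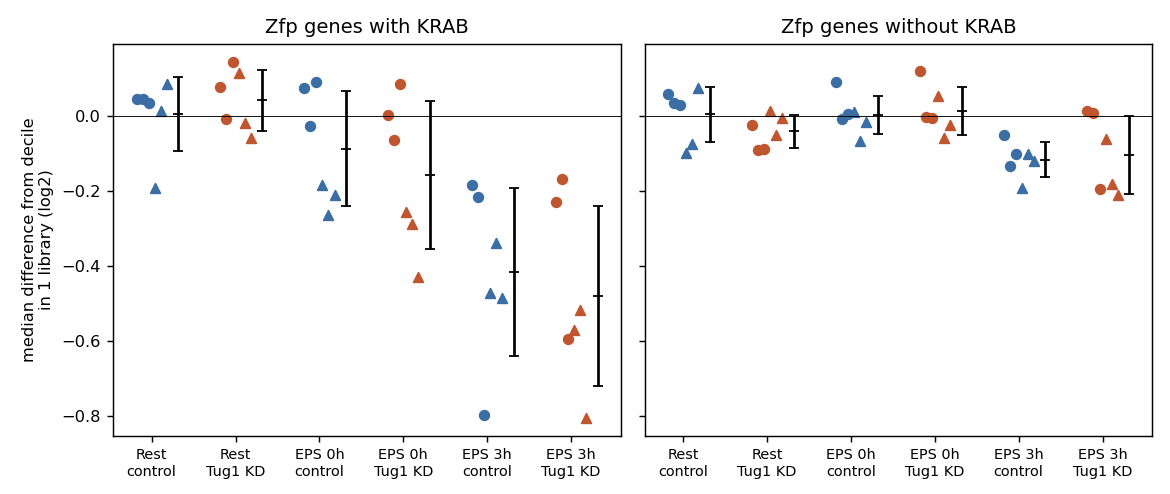
Median difference of Zfp genes from the other protein-coding genes of their decile in each library (vertical axis, log2), by group (horizontal axis), for genes with a KRAB box (left) and without (right). Blue points are control and orange points Tug1 KD, circles are replicates 1 to 3 and triangles replicates 4 to 6, and the bars give mean ± SD of 6 libraries. The KRAB values of EPS 3h control run from -0.80 to -0.18, below those of Rest control except its lowest library at -0.19.

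Among the genes that fell the most, 5 of the 6 named by size carry a KRAB box. Zfp661 (KRAB, chr2:127416539-127429014, GRCm39) had a lowest, median and highest level of 6.61, 7.67 and 9.70 RPM in Rest control and of 1.48, 2.25 and 3.09 RPM in EPS 3h control. It fell by 1.77 ± 0.18 (log2, SE, FDR = 4.31e-10), and at EPS 0h, with 3.56, 4.11 and 4.73 RPM, it lay between both groups without overlapping either. Zfp112 (KRAB, chr7:23811656-23829321) went from 4.68, 5.36 and 6.59 RPM to 1.44, 1.57 and 1.88 RPM, and fell by 1.77 ± 0.17 (FDR = 4.16e-11). Zfp692, which has no KRAB box and is known as a transcriptional repressor, went from 18.4, 25.2 and 30.5 RPM to 5.74, 7.01 and 10.2 RPM, and fell by 1.73 ± 0.16 (FDR = 4.29e-11). No library of either group overlapped for these 3 genes.

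The KRAB genes Zfp707, Zfp788 and Zfp747 also fell without overlap, with log2 fold changes of -1.72 ± 0.15, -1.56 ± 0.19 and -1.39 ± 0.16. Zfp707 had 10.1, 11.7 and 13.9 RPM in Rest control and 2.75, 3.25 and 4.85 RPM in EPS 3h control (FDR = 1.03e-11). For Zfp747, 11.9% of the 100-base stretches of its transcript occur in a transcript of another gene, so reads could be split between copies. The same holds above a 10% share for 27 of the 295 genes, and without them 132 of 268 fell and 35 rose. The lowest fitted values belonged to genes under the level set for naming. Zfp429 and Zfp54, named after their values were seen, at means of 1.74 and 2.39 RPM in Rest control and of 0.235 and 0.451 RPM in EPS 3h control, had log2 fold changes of -2.85 and -2.39.

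The genes that rose were fewer, and 27 of the 35 lack a KRAB box. A Zfp neighbour within 500 kb was present for 31.4% of them, against 75.3% of the 146 that fell. Zfp473 (KRAB, chr7:44380904-44400474), whose human counterpart takes part in the processing of histone pre-mRNA, had 0.704, 1.28 and 3.56 RPM in Rest control, 4.20, 7.67 and 9.94 RPM in EPS 0h control and 7.01, 10.2 and 15.4 RPM in EPS 3h control. It rose by 2.78 ± 0.35 at EPS 3h (FDR = 2.66e-08) without overlap, and the highest Rest library stood apart from the other 5. Zfp597 (KRAB, chr16:3676185-3702425) had 10.3, 15.4 and 17.3 RPM in Rest control and 31.3, 37.5 and 48.9 RPM in EPS 3h control, a rise of 1.41 ± 0.16 (FDR = 4.05e-09) without overlap.

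Zfp330, a nucleolar protein with no C2H2 motif, had 74.7, 90.7 and 103 RPM in Rest control, 93.1, 117 and 138 RPM in EPS 0h control and 190, 205 and 245 RPM in EPS 3h control. Its rise of 1.23 ± 0.12 (FDR = 4.19e-11) came mostly after the end of EPS, since the step from EPS 0h to EPS 3h was 0.86 ± 0.11 (FDR = 7.67e-07). Zfp367 went from 11.5, 14.5 and 21.4 RPM to 21.4, 33.7 and 45.0 RPM, so that the groups met at 21.4 RPM without crossing, and rose by 1.09 ± 0.18 (FDR = 2.70e-06). Zfp800 and Zfp655 rose by 1.06 ± 0.16 and 1.05 ± 0.16, each without overlap between the groups.

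**Figure D4:**
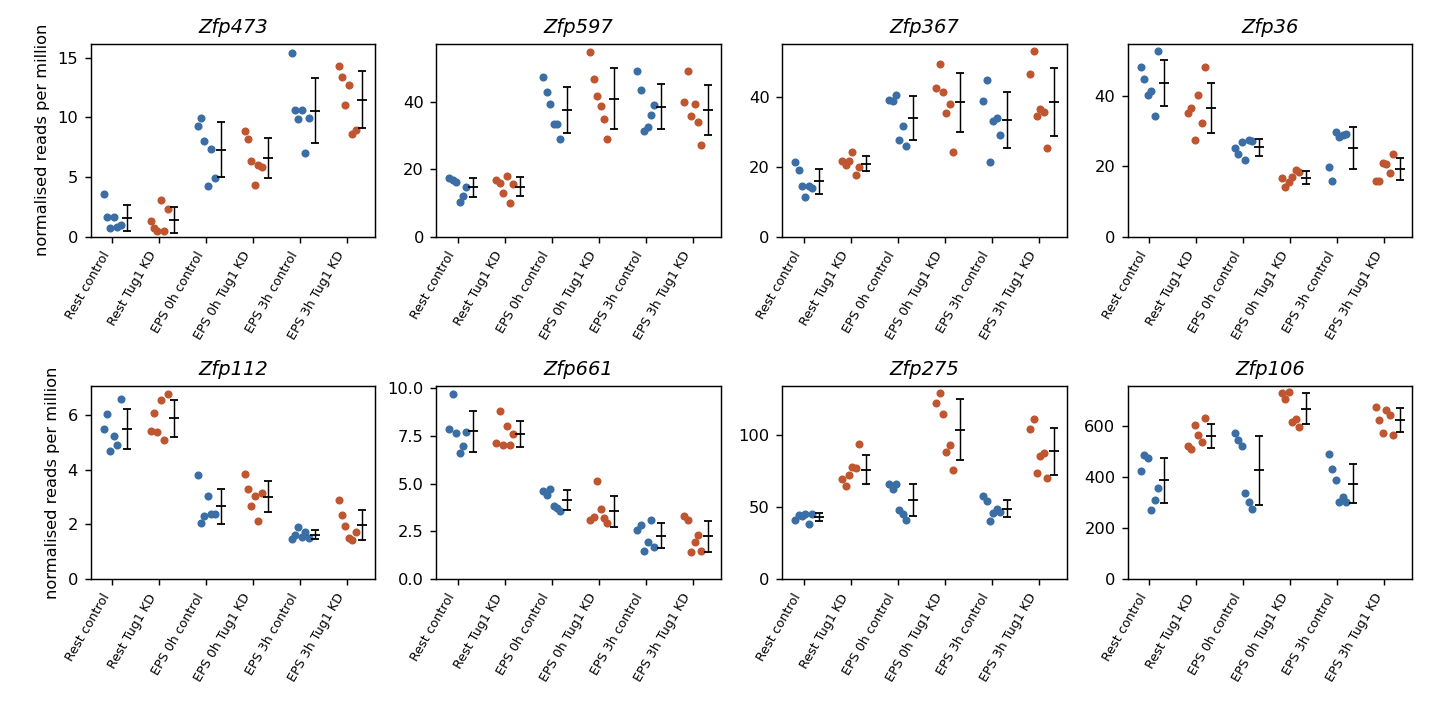
Level of 8 Zfp genes in each library (vertical axes, RPM, starting at 0) by group (horizontal axes). Blue points are control and orange points Tug1 KD, and bars give mean ± SD of 6 libraries. Zfp473, Zfp597 and Zfp367 are higher and Zfp36, Zfp112 and Zfp661 lower after EPS with either LNA, while Zfp275 and Zfp106 differ mainly between the LNAs.

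Immediately after EPS the picture was less one-sided. At EPS 0h against Rest in control, 79 Zfp genes fell and 43 rose, while 18.4% of all genes fell and 20.5% rose, so the share of Zfp genes that fell was 26.8% and the share that rose 14.6%. The median log2 fold change was -0.15 and the median difference from the decile -0.05, which became 0.03 over the 211 genes with at least 5 RPM. KRAB genes were called lower 46 times and higher 13 times, the other Zfp genes 33 and 30 times. The per-library distance from the decile in EPS 0h control ran from -0.02 to 0.08 in replicates 1 to 3 and from -0.21 to -0.11 in replicates 4 to 6, so at this time the replicate sets did not overlap. The cause was not tested.

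The 6 largest falls named at EPS 0h were those of Zfp692, Zfp112, Zfp28, Zfp707, Zfp57 and Zfp956, between -1.15 and -0.96. Zfp28 (KRAB) had 8.46, 9.26 and 10.8 RPM in Rest control, 3.98, 4.36 and 5.4 RPM in EPS 0h control and 2.71, 4.87 and 6.52 RPM in EPS 3h control, so it was down by the end of EPS, and EPS 3h differed from EPS 0h by 0.04 ± 0.16. The 6 largest rises named were those of Zfp473, Zfp597, Zfp367, Zfp800, Zfp142 and Zfp469, between 2.24 and 0.84. Zfp469, whose human counterpart is mutated in a connective tissue disorder of the cornea, had 26.3, 44.2 and 52.9 RPM in Rest control and 57.0, 68.8 and 90.2 RPM in EPS 0h control, then 35.7, 51.6 and 64.2 RPM in EPS 3h control. It rose by 0.84 ± 0.17 at EPS 0h (FDR = 0.000109), and the value at EPS 3h was 0.34 ± 0.17 (FDR = 0.0856).

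The EPS 0h and EPS 3h comparisons share the Rest control libraries, so their calls are set side by side only. Of the 79 genes lower at EPS 0h, 74 were also lower at EPS 3h, 5 were not called and 0 were higher. A further 71 genes that were not called at EPS 0h were lower at EPS 3h. Of the 43 genes higher at EPS 0h, 31 were also higher at EPS 3h and 1, Zfp846, was lower. Zfp846 (KRAB) had 14.1, 17.7 and 20 RPM in Rest control, 17.0, 24.4 and 28.9 RPM in EPS 0h control and 9.49, 13.9 and 14.9 RPM in EPS 3h control.

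During the 3 h of recovery itself, EPS 3h against EPS 0h in control, 72 Zfp genes fell and 4 rose, against 6.88% and 9.67% of all genes, which makes 24.4% and 1.36% of the Zfp genes. The median difference from the decile was -0.23, with 237 of 295 genes below the median of their decile. The median difference was -0.35 for KRAB genes and -0.10 for the others. Over genes averaging 5 RPM or more it was -0.14 in all, -0.22 for KRAB genes and -0.10 for the others. Zfp113 (KRAB) was still at 10.0, 12 and 12.6 RPM at EPS 0h and had 4.78, 6.10 and 8.08 RPM at EPS 3h, with no overlap, and fell by 0.92 ± 0.14 (FDR = 1.13e-05). Zfp866, Zfp846 and Zfp113 were the 3 largest falls named, and for Zfp866 10.3% of 100-base stretches are shared with another gene. The 3 rises named were those of Zfp13 at 0.92 ± 0.20, Zfp330 at 0.86 ± 0.11 and Zfp608 at 0.34 ± 0.12 (FDR = 0.000761, 7.67e-07 and 0.0451). Zfp13 (KRAB) had a median of 6.06 RPM in Rest control, fell to 4.01 RPM in EPS 0h control (FDR = 0.0101) and had 7.85 RPM in EPS 3h control.

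Neighbouring genes were also compared. The analysed Zfp genes formed 14 clusters of at least 5 in which each gene lay within 500 kb of the next Zfp gene. The median log2 fold change at EPS 3h was below 0 in all 14, from -1.21 to -0.19, and at EPS 0h in 10. On chromosome 7, 10 of 12 genes between 23781314 and 24927712 fell (median -1.02), 9 of 10 between 126832057 and 127485430 (median -0.95) and 5 of 5 between 4918183 and 5056722 (median -1.21), and 0 rose in these 3 clusters. On chromosome 13, 9 of 14 genes between 66261294 and 67975804 fell, and all 14 carry a KRAB box. The cluster on chromosome 17 between 21229165 and 23818522, with 22 KRAB genes, had 8 lower and 1 higher. Genes of 1 cluster share sequence and position and are not independent observations.

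**Figure D5:**
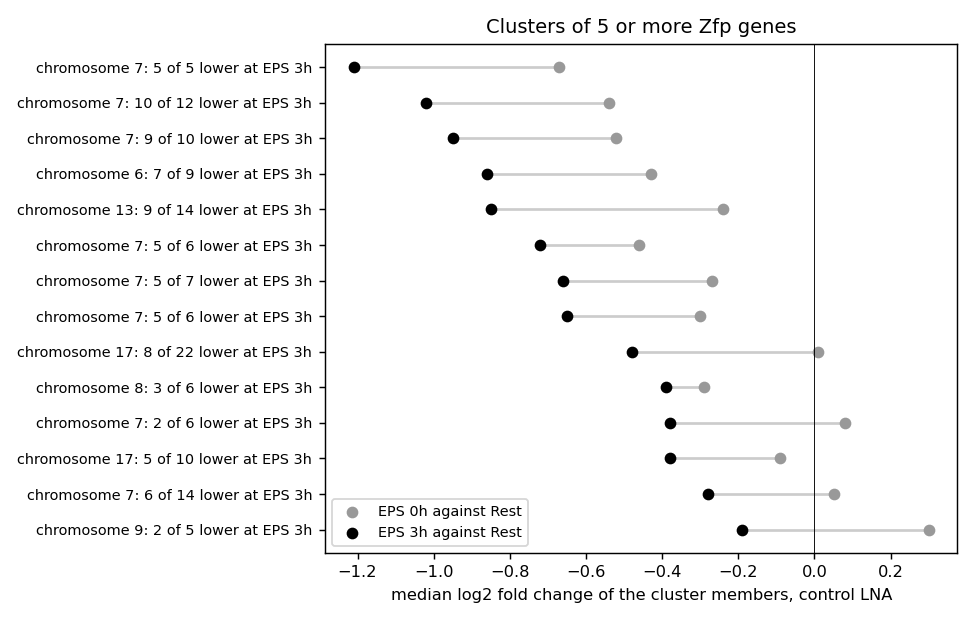
Median log2 fold change (horizontal axis, control cultures) of the genes in each of the 14 clusters of at least 5 Zfp genes (rows, with the chromosome and the number called lower at EPS 3h), at EPS 0h (grey) and EPS 3h (black). Every black point lies to the left of its grey point, from -1.21 at the top to -0.19 at the bottom.

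Genes with well-studied functions were described by role. Of 37 listed, 33 were tested, and 14 rose and 8 fell at EPS 3h in control, while 26.1% of all genes tested rose and 25.9% fell. Zfp36, or tristetraprolin, binds AU-rich elements and speeds the decay of cytokine and growth factor mRNAs. It had 34.2, 43.0 and 52.7 RPM in Rest control, 21.7, 26.1 and 27.3 RPM in EPS 0h control and 15.8, 28.6 and 29.8 RPM in EPS 3h control, so it fell by 0.78 ± 0.14 at both times (FDR = 2.12e-05 and 9.82e-06), without overlap. Of its relatives, Zfp36l1 rose by 1.00 ± 0.14 at EPS 0h and by 0.60 ± 0.14 at EPS 3h (FDR = 8.79e-07 and 0.000539), and Zfp36l3, a low gene with at most 3.15 CPM, by 1.84 ± 0.28 and 2.04 ± 0.28. Zfp36l2 differed by -0.49 ± 0.29 and -0.41 ± 0.29 (FDR = 0.176 and 0.237). Of 21 genes of the CCCH family and the deadenylase complexes that Zfp36 recruits, 6 rose and 6 fell at EPS 0h, and 6 rose and 6 fell at EPS 3h. Over all genes tested 20.5% rose and 18.4% fell at EPS 0h, and 26.1% rose and 25.9% fell at EPS 3h. Over the 6 group means of log2 CPM, the protein-coding genes most like Zfp36 were Zfp9, Olfml3, Ccdc77, Mocs3 and Gmpr, with Pearson r from 0.997 to 0.998. Over the 36 libraries they were Gstm1, Mettl27, Osgin1, Atg9b and Smarcd1, with r from 0.908 to 0.923. These genes were picked for the highest r among all protein-coding genes, and such a search over 6 points gives high values by itself. No gene was on both lists, and shared regulation was not tested.

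Zinc finger proteins that guard imprints and retroelements went in different directions. Of the 5 tested, Zfp57, Zfp445 and Zfp932 fell at EPS 3h, Zfp568 rose, and Zfp809, a silencer of retroviruses, had a log2 fold change of -0.06 ± 0.13. Zfp57, which keeps imprinted regions methylated, had 26.3, 41.9 and 48.0 RPM in Rest control and 13.0, 17.0 and 21.6 RPM in EPS 3h control and fell by 1.17 ± 0.19 (FDR = 2.33e-06), without overlap. Zfp445, with the same role, fell by 0.34 ± 0.13 (FDR = 0.0293), with overlap. Zfp568, a KRAB repressor of the placental transcript of Igf2, had 112, 131 and 142 RPM in Rest control and 176, 186 and 227 RPM in EPS 3h control, a rise of 0.59 ± 0.12 (FDR = 0.000149). Zfp932 shares 49.5% of its 100-base stretches with other genes, so its log2 fold change of -0.99 cannot be assigned to it alone.

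Of a list of promoter-binding activators and broadly expressed regulators, 5 of 7 were higher and 1 lower at EPS 3h. For this and the next lists, the shares over all genes tested were 26.1% higher and 25.9% lower. Zfp281 rose by 0.92 ± 0.15, Zfp148 by 0.76 ± 0.13 and Zfp143, which binds many housekeeping promoters, by 0.55 ± 0.09, each without overlap, whereas Zfp219 fell by 0.84. Of 8 genes for RNA, spindle and ubiquitin or SUMO functions, 6 rose and 1 fell. Zfp207, a spindle assembly factor, had 119, 124 and 130 RPM in Rest control and 160, 201 and 267 RPM in EPS 3h control and rose by 0.77 ± 0.11 (FDR = 3.31e-07). Zfp622 rose by 0.49 ± 0.14, while Zfp346, which binds double-stranded RNA, fell by 0.37 ± 0.08. Of 6 partners of corepressors, Zfp462 rose by 0.91 ± 0.17 and Zfp652 fell by 0.44 ± 0.10. Of 6 muscle and mesenchymal genes, Zfp521 rose by 0.75 and Zfp260, named as an activator in heart muscle, fell by 0.49 ± 0.18.

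The corepressor through which KRAB proteins act was not called. Trim28 differed from Rest by -0.10 ± 0.10 at EPS 3h and Setdb1 by -0.10 ± 0.08 (FDR = 0.432 and 0.296). Of 22 genes of the KRAB corepressor and heterochromatin list, 4 rose at EPS 3h (Atf7ip, Morc2a, Suv39h2 and Smarcad1) and 4 fell (Cbx1, Dnmt1, Uhrf1 and Ehmt1), with a median log2 fold change of -0.05. Over all genes tested 26.1% rose and 25.9% fell. Atf7ip, a partner of Setdb1, rose by 0.82 ± 0.15 and Suv39h2 by 0.77 ± 0.14. For other zinc finger gene names the median differences from the decile at EPS 3h were -0.01 for 37 Zbtb genes, 0.08 for 26 Zfp genes with a letter in the symbol, -0.10 for 13 Klf genes and -0.22 for 9 Zkscan genes. The 9 Zscan genes had -0.53, with 6 lower and 1 higher.

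Promoters were searched for sequence motifs because many of the genes moved together. RefSeq promoters (GRCm38.p6 table, 250 bases before to 50 after a start) were matched for 245 of the 295 genes, with several starts for some. The cyclic AMP response element, TGACGTCA on either strand, stood in a promoter of 11 of these genes (4.49%), against 2.03% of all genes in the table. It was found for 3 of 24 genes higher at EPS 3h and for 5 of 126 genes lower. The sequences below, written 5′ to 3′ along the gene with the element in capitals, show it in the 3 genes that rose and in the 5 that fell. Each was placed on GRCm39 by an exact match of the whole promoter.
Zfp473 (chr7:44397785-44397844, minus strand): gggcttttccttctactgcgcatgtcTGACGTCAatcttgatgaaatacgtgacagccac
Zfp473, upstream start (chr7:44398163-44398222, minus strand): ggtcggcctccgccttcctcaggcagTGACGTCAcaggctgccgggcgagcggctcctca
Zfp367 (chr13:64300259-64300318, minus strand): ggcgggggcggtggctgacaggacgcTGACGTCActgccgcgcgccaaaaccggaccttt
Zfp426 (chr9:20404031-20404090, minus strand): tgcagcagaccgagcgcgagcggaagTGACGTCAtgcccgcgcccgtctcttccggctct
Zfp72 (chr13:74538945-74539004, minus strand): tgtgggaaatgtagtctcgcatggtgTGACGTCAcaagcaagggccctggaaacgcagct
Zfp953 (chr13:67508710-67508769, minus strand): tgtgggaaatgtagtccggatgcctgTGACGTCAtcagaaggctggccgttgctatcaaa
Zfp266 (chr9:20432699-20432758, minus strand): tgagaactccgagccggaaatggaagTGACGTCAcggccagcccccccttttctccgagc
Zfp523 (chr17:28396082-28396141, plus strand): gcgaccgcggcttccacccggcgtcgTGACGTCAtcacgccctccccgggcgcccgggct
Zfp868 (chr8:70077821-70077880, minus strand): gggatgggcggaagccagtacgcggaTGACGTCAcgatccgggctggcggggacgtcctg

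The same letters thus stood before genes that rose, such as Zfp473 and Zfp367, and before genes that fell, such as Zfp72 (-1.99 ± 0.30 at EPS 3h) and Zfp953 (-1.48). A match is a description of the sequence and not of binding. The AP-1 letters TGANTCA were in a promoter of 4.9% of the Zfp genes against 8.97% of all genes, and in 0 of the 24 that rose. The heat shock letters GAANNTTC were in 10.2% against 9.04%, CCAAT in 50.6% against 41.1%, and the CArG box in 1.63% against 1.81%. CCAAT reached 54.7% in KRAB genes, with 43.7% of the genes lower and 41.7% of those higher at EPS 3h. The median number of CG dinucleotides was 16 in Zfp promoters and 7 over all promoters. It was 21 in promoters of Zfp genes higher and 14 in those of genes lower at EPS 3h. The comparison set also holds genes that were not tested here. The part of base composition in these motif shares was not tested.

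The second question was what Tug1 KD did to these genes. At Rest, 7 Zfp genes rose and 7 fell in Tug1 KD, or 2.37% each way, while 5.54% of all genes rose and 4.47% fell. The median log2 fold change was -0.04, the median difference from the decile 0.02, and the middle 50% of genes lay between -0.18 and 0.08. Groups did not overlap for 6 Zfp genes on the higher side (2.03%, against 4.34% of all genes) and for 7 on the lower side (2.37%, against 3.73%). The KRAB corepressor list had 0 genes called higher or lower by edgeR in Tug1 KD at Rest, EPS 0h and EPS 3h.

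Of the 7 genes that rose, 6 met the rule for naming. Zfp275 (chrX:72386194-72402686) had 37.7, 43.9 and 44.9 RPM in Rest control and 64.2, 74.5 and 93.6 RPM in Rest Tug1 KD, a rise of 0.83 ± 0.13 (FDR = 3.47e-05). The differences at EPS 0h and EPS 3h were 0.92 ± 0.13 and 0.87 ± 0.13, and the groups did not overlap at any of the 3 times. Zfp346 (chr13:55253061-55282985) had 47.8, 52.2 and 57.3 RPM in Rest control and 70.1, 79.4 and 83.9 RPM in Tug1 KD, and rose by 0.57 ± 0.07 (FDR = 1.11e-06), again without overlap at any time. Zfp106, an RNA-binding protein whose loss causes neuromuscular degeneration in mice, had 272, 392 and 487 RPM in Rest control and 511, 553 and 632 RPM in Tug1 KD, and rose by 0.54 ± 0.16 (FDR = 0.0204), by 0.65 ± 0.16 at EPS 0h and by 0.74 ± 0.16 at EPS 3h, without overlap at the 3 times. In replicates 1 to 3 alone its difference at Rest was 0.24 and was not called.

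Zfp825 (KRAB) rose by 0.86 ± 0.19 in Tug1 KD at Rest (FDR = 0.00216), from 2.88, 3.63 and 3.99 RPM to 4.69, 6.56 and 7.41 RPM. Zfp560 (KRAB) rose by 0.51 ± 0.12 and Zfp652 by 0.39 ± 0.09, and both were among the genes not called in replicates 1 to 3 alone. On the lower side, 2 genes met the rule for naming. Zfp7 (KRAB) had 10.4, 12.4 and 14.2 RPM in Rest control and 6.93, 8.23 and 9.80 RPM in Tug1 KD, and fell by 0.60 ± 0.14 (FDR = 0.00256), and Tug1 KD differed by -0.59 ± 0.14 immediately after EPS and by -0.69 ± 0.14 after recovery. Zfp628 fell by 0.39 ± 0.12 (FDR = 0.0246) at Rest.

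After EPS the knockdown comparisons held more calls. At EPS 0h, 18 Zfp genes were higher and 32 lower in Tug1 KD than in control, against 8.25% and 6.07% of all genes, or 6.10% and 10.8% of the Zfp genes. At EPS 3h, 15 were higher and 17 lower, against 6.38% and 5.11% of all genes. The same replicate numbers deviated together in both comparisons. Of 6 libraries, 6 at EPS 0h but only 2 at EPS 3h correlated best with their own number. With the replicate block 52 were lower at EPS 0h, and 23 were higher and 33 lower at EPS 3h. The median differences from the decile were -0.04 at both times. At EPS 3h the replicate sets went opposite ways, with a median log2 fold change of 0.06 and 127 of 295 genes below 0 in replicates 1 to 3 alone, and of -0.18 and 210 genes below 0 in replicates 4 to 6 alone. KRAB genes were higher 4 times and lower 19 times at EPS 0h, and the other Zfp genes 14 and 13 times.

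Zfp775, the largest named fall at EPS 0h, went from 4.59, 5.31 and 6.31 RPM in control to 2.15, 2.98 and 3.73 RPM in Tug1 KD, and fell by 0.88 ± 0.15 (FDR = 6.37e-05), followed by Zfp691 and Zfp747 at -0.74 each. Zfp36 had 21.7, 26.1 and 27.3 RPM in EPS 0h control and 14, 16.7 and 19.0 RPM in EPS 0h Tug1 KD, and fell by 0.60 ± 0.14 (FDR = 0.00239), without overlap. Its values at Rest and EPS 3h were -0.25 ± 0.14 and -0.40 ± 0.14 (FDR = 0.292 and 0.0532). Of 6 muscle and mesenchymal genes, 4 were higher in Tug1 KD at EPS 0h (Zfp106, Zfp521, Zfp609 and Zfp697) and 0 lower, while Zfp260 and Zfp467 were not called. Over all genes tested 8.25% were higher and 6.07% lower. The list is short and was chosen by hand. Zfp974 and Zfp871 were higher by 0.74 ± 0.22 and 0.70 ± 0.21 at EPS 0h (FDR = 0.0187 and 0.0164), with overlap between the libraries.

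The EPS response was also measured in Tug1 KD cultures. At EPS 3h against Rest in Tug1 KD, 149 Zfp genes fell and 40 rose, against 25.9% and 26.2% of all genes, with a median difference from the decile of -0.34. At EPS 0h, 93 fell and 43 rose, against 21.2% and 24.4% of all genes. At that time 26 Zfp genes were lower by at least 1 log2 unit in Tug1 KD and 5 in control, against 271 and 229 of 12286 other protein-coding genes. Under the 10th percentile of their decile lay 50 Zfp genes (16.9%) in Tug1 KD and 34 (11.5%) in control. By construction 10.0% of the other genes lie there. The interaction term, described below, called 0 Zfp genes at this time. The median log2 fold changes in Tug1 KD differed between replicates 1 to 3 and 4 to 6, being -0.04 and -0.26 immediately after EPS, then -0.29 and -0.55 after recovery. The 3 largest rises named at EPS 3h were those of Zfp473 (3.03 ± 0.35), Zfp597 (1.34 ± 0.16) and Zfp655 (1.22 ± 0.16), and the 3 largest falls those of Zfp788 (-1.97 ± 0.20), Zfp707 (-1.86 ± 0.16) and Zfp747 (-1.77 ± 0.17). At EPS 0h they were Zfp473, Zfp469 and Zfp597 upwards and Zfp707, Zfp691 and Zfp3 downwards. Zfp469 had 30.4, 36.1 and 42.0 RPM in Rest Tug1 KD and 70.7, 109 and 129 RPM in EPS 0h Tug1 KD, a rise of 1.54 ± 0.17.

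The difference of the EPS response between Tug1 KD and control was tested by an interaction term. At an edgeR FDR under 0.05, 0 Zfp genes passed at EPS 0h and 0 at EPS 3h, and of all genes 0.0% passed at EPS 0h and 0.00715% rose at EPS 3h. DESeq2 and limma-voom also called 0 Zfp genes at either time. At an unadjusted p under 0.05 there were 14 Zfp genes at EPS 0h and 13 at EPS 3h, of 324 and 430 over all genes. Of the 14, 2 were higher and 12 lower, while of 12286 other protein-coding genes 182 were higher and 75 lower. Of the 13, 5 were higher and 8 lower, while of the other genes 248 were higher and 121 lower. The median interaction was -0.05 at EPS 0h and -0.01 at EPS 3h (log2), and the middle 50% of genes lay between -0.20 and 0.12 and between -0.17 and 0.15. For Zfp469 the interaction at EPS 0h was 0.70 ± 0.23, with an unadjusted p of 0.0048 and an edgeR FDR of 1.0.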

How the data were processed

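RNA-seq of C2C12 cultures gave 36 libraries in 6 groups of 6, grouped by the labels. The authors deposited raw counts per gene, made from stranded polyA libraries read as pairs. Per the labels and the study's methods, reads were trimmed with fastp 0.14.1, checked with FastQC 0.11.7 and aligned to GRCm39 with STAR 2.5. The strand setting of the counting is not given in the sources used here. The per-library files equalled the columns of the series matrix in 36 of 36 libraries, and no pair of replicates agreed within sampling noise (lowest chi-square per degree of freedom 4.367). Rows without a gene name (1492, with 0.0327% of counts) stayed in the library totals and in the filter and tests, and could not be Zfp genes by the rule.

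Genes at 1 CPM in at least 12 libraries were tested with edgeR 4.0.16 (TMM, robust quasi-likelihood test, 6 group means, R 4.3.3), with Benjamini-Hochberg FDR under 0.05 over all 13995 genes. RPM are TMM-normalised CPM. A total between 17005079 and 24181167 counts lay behind each library. Deciles were cut on mean log2 CPM with a prior count of 2. Coordinates and coding sequences came from GENCODE M39 on GRCm39. Scripts were tested on simulated counts. The members, lists and subsets were chosen with earlier results of these data known.

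Named were, for Tug1 KD at Rest and both EPS comparisons in control, the 6 largest rises and falls past the FDR whose higher group averaged 5 RPM or more and whose libraries did not overlap, the 3 largest each way in other comparisons (overlap allowed), and 37 genes with a known role. Genes outside these rules are named where a sequence, a list or a count turned on them. Replicates with the same number deviated together in every pair (r over 0.1) for Tug1 KD against control at EPS 0h (0.57 to 0.714) and at EPS 3h (0.207 to 0.716), for EPS 0h and EPS 3h against Rest in control (lowest 0.232 and 0.122) and for EPS 0h against Rest in Tug1 KD (lowest 0.156). In these 5 comparisons, in the order given, 6, 2, 2, 5 and 3 of 6 libraries correlated best with their own number. The pairing by number comes from the data. The study's methods give 2 experiments with 3 wells per condition, and the labels give replicate numbers with no experiment. Alternatives were DESeq2 1.42.0, limma-voom 3.58.1, library size scaling, other filters, a replicate block, a term for replicates 1 to 3 against 4 to 6, either set alone, and other bins.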

Additional observations from a re-analysis of the deposited data

Results flagged for a closer look

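Of 63 groups of 6 libraries examined for the named genes, 3 held a library far from the others by Dixon's criterion at the 95% level, which chance alone gives in about 1 of 20 groups. Zfp142 had a highest library of 52.3 RPM in Rest control, and Zfp473 one of 3.56 RPM in the same group. Zfp788 had a lowest library of 2.5 RPM in EPS 3h control. The cause was not tested.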

How the results depend on the processing

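No call reversed its direction. Medians of the difference from the decile that lay near 0 changed sign: in replicates 1 to 3 alone for Tug1 KD at Rest (-0.025) and EPS 3h (0.078), EPS 0h in Tug1 KD and the interaction at EPS 3h (0.105); over members averaging 5 RPM or more for Tug1 KD at Rest (-0.001), EPS 0h in control (0.031) and Tug1 KD (0.023) and the interaction at EPS 3h (0.005); and in bins of level per length for Tug1 KD at Rest (-0.005). The falls of Zfp genes at EPS 3h in control ran from 99 to 193 over the alternatives, the rises from 26 to 39. These ranges mix sets of unlike size: the 99 is of 211 genes averaging 5 RPM or more, the 193 of all 295. Counts that moved by over 1.5 times are given here, and the cause was not tested. With library size only, 2 genes rose from EPS 0h to EPS 3h. With no filter the same count was 2, and 3 genes were lower in Tug1 KD at Rest, 19 lower at EPS 0h and 7 higher at EPS 3h. With the replicate block, 11 were higher and 16 lower in Tug1 KD at Rest, 52 lower at EPS 0h, 23 higher and 33 lower at EPS 3h, and 7 higher at EPS 3h than at EPS 0h. Numbers did not pair the samples for Tug1 KD at Rest, for EPS 3h against EPS 0h or for EPS 3h against Rest in Tug1 KD (lowest r -0.0767, -0.029 and 0.0771), where 3, 3 and 1 of 6 libraries correlated best with their own number. With the replicate set term, 11 were higher and 13 lower in Tug1 KD at Rest, 52 lower at EPS 0h, 29 lower at EPS 3h, and 7 higher at EPS 3h than at EPS 0h.

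In replicates 1 to 3 alone, 3 were higher and 4 lower in Tug1 KD at Rest, 9 higher and 6 lower at EPS 0h and 4 lower at EPS 3h, and the median at EPS 0h in Tug1 KD was 0.051. In replicates 4 to 6 alone, 22 were higher in Tug1 KD at Rest, 9 higher and 34 lower at EPS 3h, and 34 lower at EPS 3h than at EPS 0h, with medians of -0.212 at EPS 0h in Tug1 KD and -0.18 for the interaction at EPS 3h. Over members averaging 5 RPM or more, chosen after seeing the data, 51 fell at EPS 0h in control, 56 at EPS 0h in Tug1 KD and 98 at EPS 3h in Tug1 KD, with medians of -0.182 and -0.188 at EPS 3h in control and Tug1 KD and of -0.136 between EPS 3h and EPS 0h. Of the named genes, 10 calls were lost in replicates 1 to 3 alone, 3 in replicates 4 to 6 alone, 2 with no filter, and that of Zfp608 with limma-voom and with library size only.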
